A study of Solenopsis invicta with 4 samples.

Results

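The transcripts described here belong to Solenopsis invicta, known as the red imported fire ant, and differed between workers held for 24 h at 10 °C and workers held for 24 h at 30 °C, the temperature that served as the control. A contig, which is a transcript assembled from the reads, was taken as an ant transcript when its KEGG entry belonged to the fire ant or its nucleotide match named Solenopsis invicta. This rule took 2184 of the 4596 contigs that the authors list for the comparison, and they carry 1903 gene identifiers. The KEGG entry placed 1613 of them and the nucleotide match alone placed 571. In 69 contigs the entries name different genes, so the gene name of those is uncertain.

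The ants were wild-type adult medium workers from colonies kept at 25 °C, and RNA came from whole bodies. Each temperature had 1 library, which leaves the differences without a replicate check, so they are described by size and none was tested. The labels do not say how many workers or colonies went into a library. In whole-body RNA, fewer cells of a type and less RNA per cell cannot be told apart.

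Insects cannot hold their body temperature, so cold slows enzymes, stiffens membranes and disturbs the ion gradients on which nerve and muscle depend. Known features of insect cold acclimation include changes in membrane lipids, in stored fat and sugar, in ion pumps and channels, in chaperones and in the cytoskeleton. Isoprenoids, built from mevalonate through isopentenyl and farnesyl pyrophosphate, supply insects with juvenile hormone, defensive and pheromone terpenoids and protein anchors, while insects take their sterols from food.

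Levels are given as CPM, read counts divided by the scaled library size behind the authors' values, which was 30024104 reads at 10 °C and 38277639 at 30 °C. Where levels or reads stand in pairs, the value at 30 °C comes first and that at 10 °C second, unless named otherwise. Folds are ratios of CPM with exact 95% intervals in brackets that cover counting error only. The log2 ratio is of CPM plus 1 at 10 °C over CPM plus 1 at 30 °C, so it is smaller than the log2 of the fold for low transcripts. The authors' deposited table holds only contigs past a raw p limit of 0.05, with a smallest absolute fold of 2.36 in the authors' deposited table and at least 1 read in both libraries. A gene that is not listed is therefore not called unchanged, and a transcript without reads in a library could not appear.

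Of the 2184 ant contigs, 1198 (54.9%) had a higher CPM at 10 °C and 986 (45.1%) a lower one. Over all listed contigs the shares were 56.5% and 43.5%. Among the 1218 ant contigs that averaged 1 CPM or more over both libraries, called counted from here on, 470 (38.6%) were at least 2-fold higher on the log2(CPM + 1) scale and 572 (47.0%) at least 2-fold lower. All 2114 counted contigs of the table gave 36.2% and 47.0%, so the ant contigs stood close to the background. At a 4-fold limit the order turned, with 73 ant contigs (5.99%) higher and 37 (3.04%) lower, against 5.82% and 2.79% over all counted contigs. The 2412 listed contigs that did not meet the rule gave 58.1% higher and 41.9% lower. Of their 896 counted contigs, 33.0% and 47.0% passed the 2-fold limit and 5.58% and 2.46% the 4-fold limit. The median log2 ratio of the counted ant contigs was -0.91, with 559 of them higher and 659 lower. Because the table lists nothing near a ratio of 1, a median shows which direction held more contigs and not a typical size.

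The ant contigs held 571665 of the 2466997 listed reads at 10 °C and 840245 of the 1200278 listed reads at 30 °C. Most listed reads at 10 °C thus belonged to contigs that did not meet the rule, and at 30 °C most belonged to the ant. The part of this difference in the ant results was not tested.

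**Figure D1:**
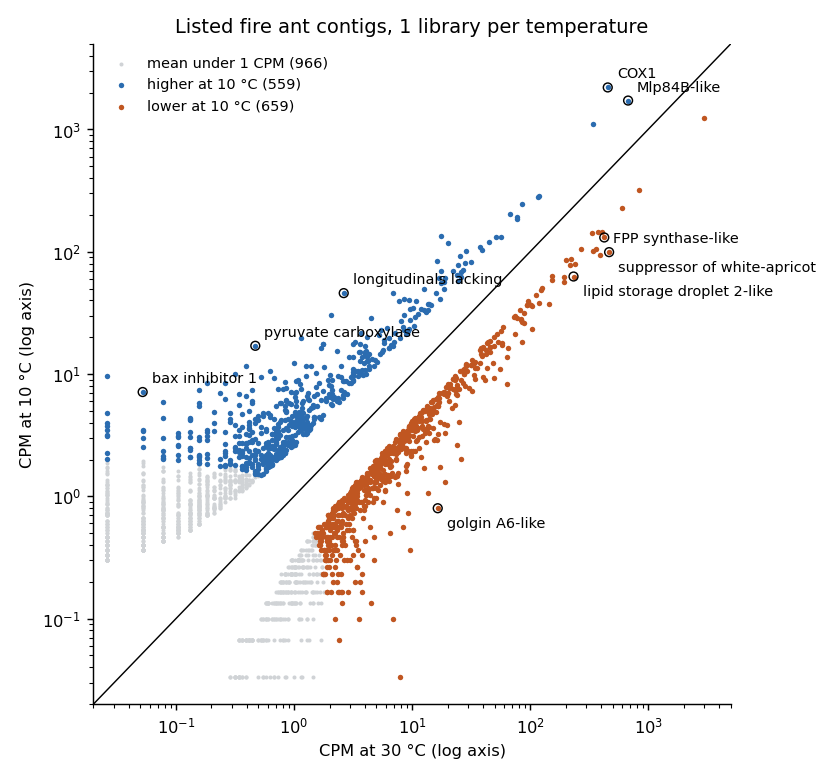
CPM at 10 °C against CPM at 30 °C for the 2184 listed ant contigs, both on log axes, with the line of equal levels. Blue and orange points are the 559 and 659 counted contigs that were higher and lower at 10 °C, grey points have a mean under 1 CPM, and the empty band along the line is where the deposited table lists nothing.

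Direction went with level. Of the 966 contigs with a mean under 1 CPM, 66.1% were higher at 10 °C. The share was 54.4% of 412 between 1 and 2 CPM, 47.0% of 381 between 2 and 5 CPM and 37.4% of 182 between 5 and 10 CPM. It was 37.1% of 213 between 10 and 100 CPM, and 30.0% of the 30 contigs at 100 CPM or more, which is 9 contigs. A relative contig length was estimated as reads over the authors' FPKM, a level scaled by length, at 30 °C. By this estimate contigs that were higher at 10 °C were shorter. Their median was 0.56 times that of the contigs that were lower, and 0.73 times among the counted contigs. The estimate is rough where reads at 30 °C are few. The part of contig length in the direction was not tested.

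**Figure D2:**
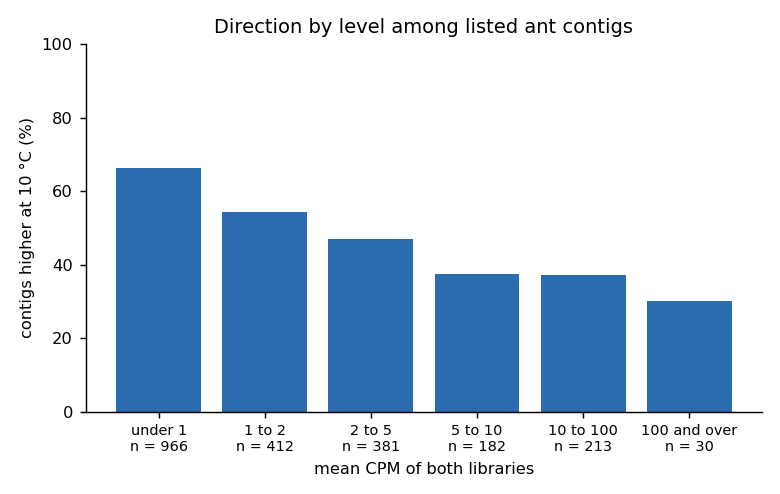
Share of listed ant contigs with a higher CPM at 10 °C than at 30 °C, in classes of mean CPM, with the number of contigs in each class under its bar. The share goes from 66.1% in the lowest class to 30.0% in the highest.

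The largest differences upward were in transcripts that were scarce at 30 °C. A contig of longitudinals lacking, a BTB zinc finger gene that guides axon growth in Drosophila, had 2.64 CPM at 30 °C and 45.9 CPM at 10 °C, 17.4-fold higher (14.2 to 21.5). Inactive rhomboid protein 1, of a family that controls the traffic of growth factor precursors, had 0.392 and 11.7 CPM, 29.7-fold higher (17.8 to 53.7). Bax inhibitor 1, a membrane protein that restrains cell death, had 2 reads at 30 °C and 214 at 10 °C, a ratio of 136 (37.3 to 1134) that rests on those 2 reads. Its level at 20 °C was 5.09 CPM, beside 7.13 CPM at 10 °C.

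Nerve and metal transport genes stood in the same group. Synapsin, which tethers synaptic vesicles, had 10 reads at 30 °C and 253 at 10 °C, 32.3-fold higher (17.3 to 68.1). The T-type calcium channel subunit alpha-1G had 0.627 and 10.5 CPM, 16.7-fold higher (11 to 26.5). Malvolio, a manganese and iron transporter known from Drosophila taste behaviour, had 6 and 224 reads, 47.6-fold higher (21.5 to 131), and all 3 of its listed contigs were higher. These transcripts were low in absolute terms, since each had under 1 CPM at 30 °C. A gamma-glutamylcyclotransferase, of a family that takes part in glutathione turnover, was 18.2-fold higher (11.5 to 30.2), at 9.49 CPM against 0.522. Both contigs of ecdysoneless, a factor needed for ecdysone supply and cell growth in Drosophila, were higher, and the larger had 1.75 and 17.8 CPM.

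The largest differences downward included more abundant transcripts. The splicing factor suppressor of white-apricot homolog, which regulates splicing in Drosophila, had 467 CPM at 30 °C and 99.3 CPM at 10 °C, 4.71-fold lower (4.53 to 4.89). Kynurenine/alpha-aminoadipate aminotransferase, an enzyme of tryptophan and lysine breakdown, had 86.0 and 18.4 CPM, 4.67-fold lower (4.27 to 5.13), and stood at 24.3 CPM at 20 °C. GPI ethanolamine phosphate transferase 3, which builds the lipid anchor of surface proteins, had 55.5 and 11.1 CPM, 5.0-fold lower (4.45 to 5.63). Counting error was small for all 3 beside the size of the difference.

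A golgin A6-like gene had the largest log2 difference downward among the described genes, -3.28, with 632 reads at 30 °C and 24 at 10 °C, 20.7-fold lower (13.8 to 32.5). All 4 of its listed contigs were lower. A TRIO and F-actin-binding protein-like gene had 25.2 and 4.06 CPM, 6.21-fold lower (5.14 to 7.56), with 3.58 CPM at 20 °C and 5.21 CPM at 40 °C. Equilibrative nucleoside transporter 4, a membrane carrier, had 7.50 and 0.766 CPM. Retinol dehydrogenase 12-like, of a family that reduces retinal, had 19.1 and 3.30 CPM, and both of its contigs were lower.

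**Figure D3:**
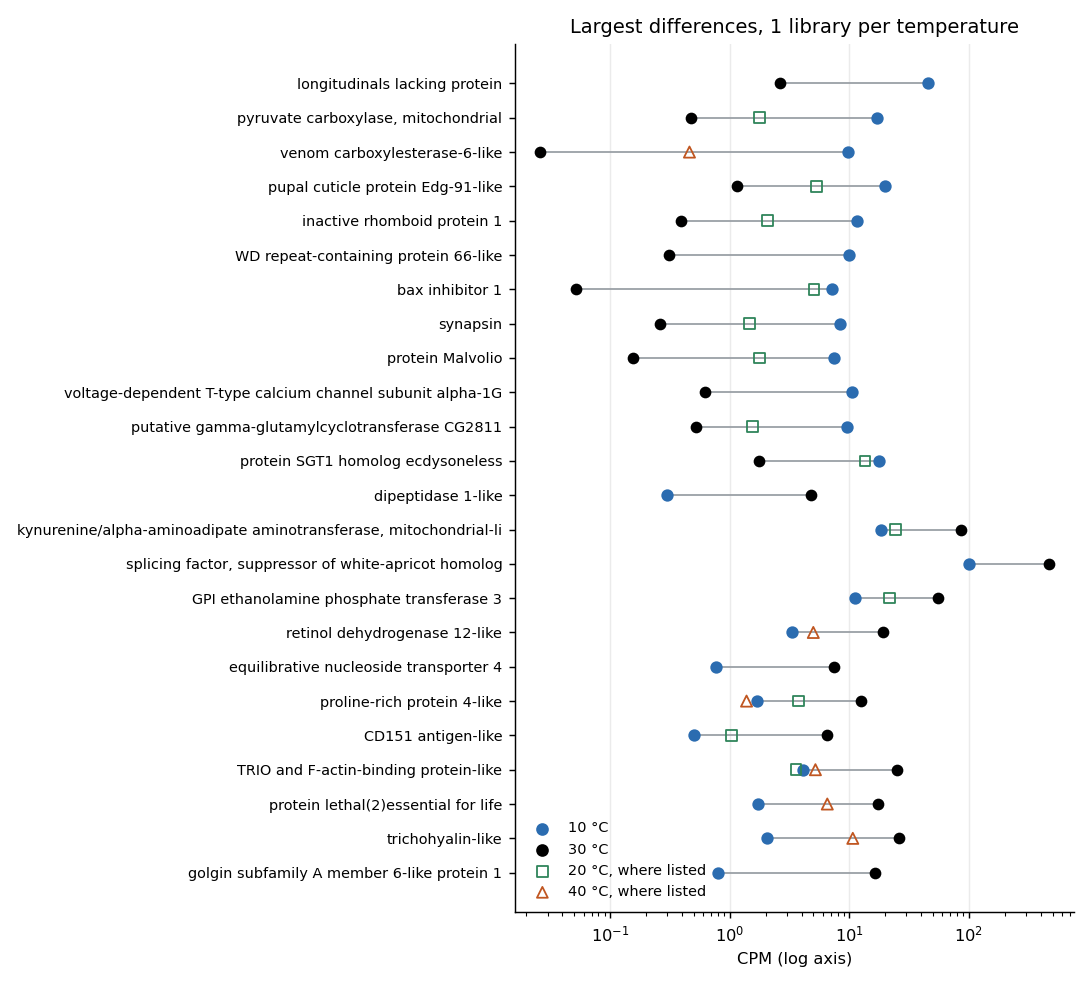
CPM, on a log axis, of the 12 described genes with the largest log2 ratio upward and the 12 with the largest downward, 1 contig per gene. Filled circles are 10 °C (blue) and 30 °C (black), and open symbols are 20 °C and 40 °C where the contig is listed there; the upward genes start under 3 CPM at 30 °C.

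The counts of each gene group below are to be read against all ant contigs, of which 54.9% were higher and 45.1% lower, and against the counted ones, of which 38.6% and 47.0% passed the 2-fold limit upward and downward.

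Isoprenoid, sterol and SREBP genes were mostly lower at 10 °C: 16 of 20 listed contigs were lower, and 13 of 16 counted contigs were at least 2-fold lower against 2 higher. Their median log2 ratio was -1.37, beside -0.91 over the counted ant contigs. This group was put together after its values had been seen, so its count describes it and supports nothing more.

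Within it, isopentenyl-diphosphate isomerase, which makes the starter unit for prenyl chains, had a main contig at 194 CPM at 30 °C and 56.2 CPM at 10 °C, 3.45-fold lower (3.27 to 3.63). A second contig of the same gene went the other way, with 6 and 164 reads. Farnesyl pyrophosphate synthase-like genes, whose product feeds juvenile hormone and terpenoids, form a family of close copies among which the counting could split reads, so each value is uncertain. The copy with most reads had 425 CPM at 30 °C and 131 CPM at 10 °C, 3.25-fold lower (3.14 to 3.36), and 120 CPM at 40 °C. LOC105207424 had 97.7 and 37.2 CPM, LOC105207425 had 94.8 and 36.9 CPM, and LOC105199841 had 42.4 and 15.8 CPM. LOC105202514 was higher instead, at 2.09 and 5.56 CPM.

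Genes of the SREBP pathway and of sterol transport were lower as well. Sterol regulatory element-binding protein 1, the transcription factor that drives lipid synthesis genes, had 83.9 CPM at 30 °C and 27.6 CPM at 10 °C, 3.03-fold lower (2.81 to 3.28), with 30.8 CPM at 20 °C. The site-2 protease, which releases that factor from the membrane, had 23.9 and 8.09 CPM in its larger contig, and both of its contigs were lower. An NPC2 homolog, a carrier of sterols, had 23.4 and 7.43 CPM, 3.16-fold lower (2.72 to 3.67).

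Fat metabolism was divided. In fatty acid and hydrocarbon synthesis 11 contigs were higher and 12 lower, and 7 of 12 counted contigs were at least 2-fold lower against 3 higher. An elongase of very long chain fatty acids had 16.7 and 3.23 CPM, 5.17-fold lower (4.17 to 6.47). An acyl-CoA Delta(11) desaturase had 32.3 and 7.29 CPM, 4.43-fold lower (3.83 to 5.14). A fatty acyl-CoA reductase, of the family that makes alcohols for waxes, had 43.4 and 11.3 CPM, 3.84-fold lower (3.42 to 4.33). Fatty acid synthase-like copies went both ways and may share reads: LOC105205072 had 409 CPM at 30 °C and 144 CPM at 10 °C, and LOC105202483 had 5.51 and 22.8 CPM. Lipid storage droplets surface-binding protein 2-like, a coat protein of fat droplets, had 233 and 62.7 CPM, 3.72-fold lower (3.54 to 3.91).

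Membrane lipid genes gave 11 contigs higher and 6 lower, with 5 of 9 counted contigs past 2-fold upward and 3 downward. Phospholipase A1 had 117 CPM at 30 °C and 280 CPM at 10 °C, 2.40-fold higher (2.31 to 2.49). A phospholipid-transporting ATPase, which moves lipids between the membrane faces, had 14.6 and 36.8 CPM. A glucosylceramidase had 4.28 and 14.7 CPM, 3.42-fold higher (2.85 to 4.12). Among those that were lower, a calcium-independent phospholipase A2-gamma-like gene had 144 and 37.4 CPM, and a phospholipase C-like gene had 840 and 318 CPM, 2.64-fold lower (2.58 to 2.71).

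Sugar genes gave 9 contigs higher and 8 lower, and of 10 counted contigs 4 passed 2-fold upward and 6 downward. The E1 alpha subunit of pyruvate dehydrogenase, the entry to the citric acid cycle, had 0.836 and 5.53 CPM, 6.61-fold higher (4.51 to 9.98). Enzymes of glucose formation went both ways: pyruvate carboxylase had 0.470 and 17 CPM, 36.2-fold higher (22.7 to 61.6), and phosphoenolpyruvate carboxykinase had 13.1 and 4.20 CPM. A glucose dehydrogenase had 88.3 and 26.2 CPM, 3.36-fold lower (3.11 to 3.64), though its entries name different genes, so that name is uncertain. Pyrroline-5-carboxylate reductases, which make proline, went both ways: 1 had 20.8 and 7.89 CPM and another 0.496 and 1.83 CPM.

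Respiratory chain genes gave 7 contigs higher and 4 lower, 5 of 8 counted contigs being at least 2-fold higher and 3 lower. Cytochrome c oxidase subunit I, COX1, had 455 CPM at 30 °C and 2206 CPM at 10 °C, 4.85-fold higher (4.77 to 4.93). The mitochondrially encoded ND5 of complex I had 119 CPM at 30 °C and 288 CPM at 10 °C, and ND4 had 78.1 and 194 CPM. The nuclear 49 kDa subunit of the same complex I had 25.4 and 92.9 CPM, 3.65-fold higher (3.39 to 3.93). Its 75 kDa subunit went the other way, with 5.77 and 1.5 CPM, but its entries name different genes, so that name is uncertain. Iron-sulfur protein 3 of complex I was lower too, with 119 and 20 reads, 4.67-fold (2.89 to 7.92). Complex I subunits therefore did not share a direction in these libraries.

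Muscle, cytoskeleton and motor genes had 47 contigs higher and 21 lower, and 20 of 33 counted contigs were at least 2-fold higher against 9 lower, where 38.6% and 47.0% of all counted ant contigs were. Their median log2 ratio was 1.14, beside -0.91 over the counted ant contigs, and each sign shows only which direction held more contigs. Muscle LIM protein Mlp84B-like, a Z-disc protein in Drosophila, had 677 CPM at 30 °C and 1723 CPM at 10 °C, 2.55-fold higher (2.51 to 2.59). A twitchin-like gene, a giant kinase of the thick filament, had 19.0 and 60.5 CPM, 3.18-fold higher (2.91 to 3.47). Spectrin alpha, of the membrane skeleton, had 77.2 and 184 CPM. A titin-like gene was lower, at 16.5 and 5.70 CPM, so not all sarcomere genes were higher.

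Axoneme and cilium genes, a group also put together after its values had been seen, had 18 contigs higher and 11 lower, and 13 of 20 counted contigs were at least 2-fold higher against 6 lower. In insects, motile axonemes are known from sperm and modified cilia from sensory neurons. WD repeat-containing protein 66-like, a protein of the axonemal spokes, had 12 reads at 30 °C and 300 at 10 °C in its largest contig, and all 3 contigs were higher. Dynein intermediate chain 3, ciliary, a motor subunit, had 22 and 69.5 CPM, 3.16-fold higher (2.91 to 3.42), and 8.90 CPM at 40 °C. Growth arrest-specific protein 8, of the dynein regulatory complex, had 2.35 and 9.69 CPM, and kinesin KIF9 had 2.01 and 9.86 CPM. Other axonemal genes were lower, among them dynein light chain 4, axonemal-like, with 9.40 and 3.5 CPM, and sperm-associated antigen 6-like, with 4.13 and 1.4 CPM. Carriers within cilia also went both ways. Intraflagellar transport protein 46 had 4.96 and 0.966 CPM, protein 80 had 6.66 and 1.93 CPM, and protein 74 had 10.5 and 4.30 CPM. Intraflagellar transport protein 22 was higher, with 3.63 and 12.8 CPM, as was Bardet-Biedl syndrome 1 protein, of a cilium cargo complex, with 0.758 and 2.23 CPM.

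Nerve genes had 20 contigs higher and 28 lower. Of 30 counted contigs, 17 were at least 2-fold lower and 8 higher, where 47.0% and 38.6% of all counted ant contigs were. The unc-79 homolog, part of a sodium leak channel complex, had 238 CPM at 30 °C and 79.1 CPM at 10 °C, 3.01-fold lower. The alpha-1 subunit of a type A calcium channel, which triggers transmitter release, had 219 and 77.3 CPM. Synaptotagmin 1, the calcium sensor of synaptic vesicles, had 12.8 and 3.30 CPM, and the tachykinin neuropeptide gene had 4.91 and 1.57 CPM. Some channels were higher, among them eag, a potassium channel, with 0.705 and 5.43 CPM, 7.70-fold higher (5.1 to 12), and an acetylcholine receptor alpha subunit, with 0.47 and 4.0 CPM.

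By number of listed contigs, genes of smell, taste and temperature sensing were mostly lower. Sensory receptor genes had 2 contigs higher and 10 lower, most of them under 2 CPM. Only 3 of these receptor contigs were counted, and the 2-fold limit was passed by 1 upward and 1 downward. The upward one, odorant receptor 43a-like, had 56 reads at 30 °C and 160 at 10 °C, 3.64-fold higher (2.67 to 5.03). Its entries name different genes, so that name is uncertain. The odorant receptor coreceptor, which most odorant receptors need to work, had 83 reads at 30 °C and 18 at 10 °C, 3.62-fold lower (2.15 to 6.4). A contig of the transient receptor potential channel A5, of a family that includes insect heat sensors, had 73 and 5 reads, 11.5-fold lower (4.69 to 36.3). Odorant-binding and chemosensory carrier proteins had 1 contig higher and 7 lower, and all 7 counted contigs were at least 2-fold lower. Among them a pheromone-binding protein Gp-9-like gene had 5.25 and 1.43 CPM, and the lush homolog, an odorant-binding protein needed for pheromone sensing in Drosophila, had 7.84 and 3.16 CPM.

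All 4 listed contigs of the clock group were lower, which includes takeout-like genes, whose Drosophila relative is a clock-controlled carrier linked to feeding. LOC105203831 had 88.4 CPM at 30 °C and 31.7 CPM at 10 °C, 2.79-fold lower (2.59 to 3.0), and LOC105199218 had 49.4 and 16.9 CPM, with 12 CPM at 20 °C. The period circadian protein gene had 17.1 and 4.06 CPM, 4.22-fold lower (3.47 to 5.16). Both listed contigs of 1 insulin-like peptide receptor gene, which carries the growth signal, were lower, with 58 and 15 reads in the larger. Only 1 of them was counted, with a log2 ratio of -0.75.

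Chaperones, which fold proteins, had 8 contigs higher and 1 lower, all at low levels. T-complex protein 1 subunit beta had 1.20 and 6.03 CPM, 5.02-fold higher (3.61 to 7.09), and subunit alpha 0.653 and 2.86 CPM. Subunit zeta of the same ring was lower, with 137 and 3 reads. The proteasome and ubiquitin group had 27 contigs higher and 11 lower, 14 and 10 of 26 counted contigs being past 2-fold. Cullin-2, a scaffold of ubiquitin ligases, had 37.3 and 109 CPM.

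Histone, replication and cell cycle genes had 22 contigs higher and 12 lower, with 11 and 6 of 21 counted contigs past 2-fold. Over all ant contigs 54.9% were higher, and of the counted ones 38.6% passed 2-fold upward and 47.0% downward. Histone H4 had 0.366 and 4.70 CPM, 12.8-fold higher (7.4 to 24.1), and a histone H3.3-like gene 0.940 and 7.19 CPM. RAD50, a DNA repair protein, had 8.49 and 40.8 CPM, 4.80-fold higher (4.25 to 5.44). The cDNA was primed with oligo-dT, and histone messages made in replication usually lack a poly(A) tail, so their level here may not stand for all histone RNA. RNA splicing and binding proteins had 26 contigs higher and 14 lower, and cytoplasmic tRNA 2-thiolation protein 1 had 0.862 and 6.06 CPM.

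Of the other groups, cytochromes P450 had 12 contigs higher and 25 lower, 19 of 30 counted contigs being at least 2-fold lower against 4 higher. P450 4C1-like had 13.2 and 2.76 CPM, 4.77-fold lower (3.78 to 6.09), while a 6k1-like copy, LOC105206904, had 4 and 99 reads. Other detoxification genes were even, 11 and 11, with a UDP-glucuronosyltransferase, which tags toxins with sugar, at 2.30 and 15.4 CPM and a glutathione S-transferase at 19.9 and 3.8 CPM. Immune genes had 3 contigs higher and 2 lower, and the antimicrobial peptide hymenoptaecin had 0.862 and 7.76 CPM, 9.0-fold higher (6.23 to 13.4), with 24.9 CPM at 20 °C. Without a filter on level, solute carriers and pumps had 30 higher and 26 lower, protein kinases and phosphatases 48 and 28, and transcription factors 59 and 39. Vesicle traffic had 10 and 21, and cuticle and matrix genes 11 and 7. Counted contigs past 2-fold were 12 higher and 17 lower for solute carriers and 20 and 22 for kinases and phosphatases. They were 20 and 19 for transcription factors, 5 and 10 for vesicle traffic and 5 and 4 for cuticle and matrix genes. Venom components had 6 higher and 0 lower, and all 4 counted ones passed 2-fold upward. Venom allergen 3 had 340 and 1106 CPM, 3.25-fold higher (3.19 to 3.32), with 1609 CPM at 20 °C. Peptidases had 16 and 6, translation genes 15 and 9, lipid breakdown and storage 7 and 5, and antioxidant genes 2 and 1. Germline genes had 4 and 4, noncoding RNAs 17 and 16, photoreceptor genes 2 and 6 and transposable element genes 3 and 5. Counted contigs past 2-fold were 8 higher and 4 lower for peptidases, 5 and 6 for translation and 3 and 3 for lipid breakdown. They were 1 and 0 for antioxidant genes, 0 and 2 for germline genes and 9 and 9 for noncoding RNAs. Photoreceptor genes had 2 and 5, and transposable element genes 0 and 2. The only listed small heat shock gene, lethal(2)essential for life, had 17.4 and 1.73 CPM, 10.1-fold lower (7.58 to 13.6), with 6.54 CPM at 40 °C. Laminin alpha-1, of the basement membrane, had 10 and 189 reads, 24.1-fold higher (12.8 to 51.1).

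**Figure D4:**
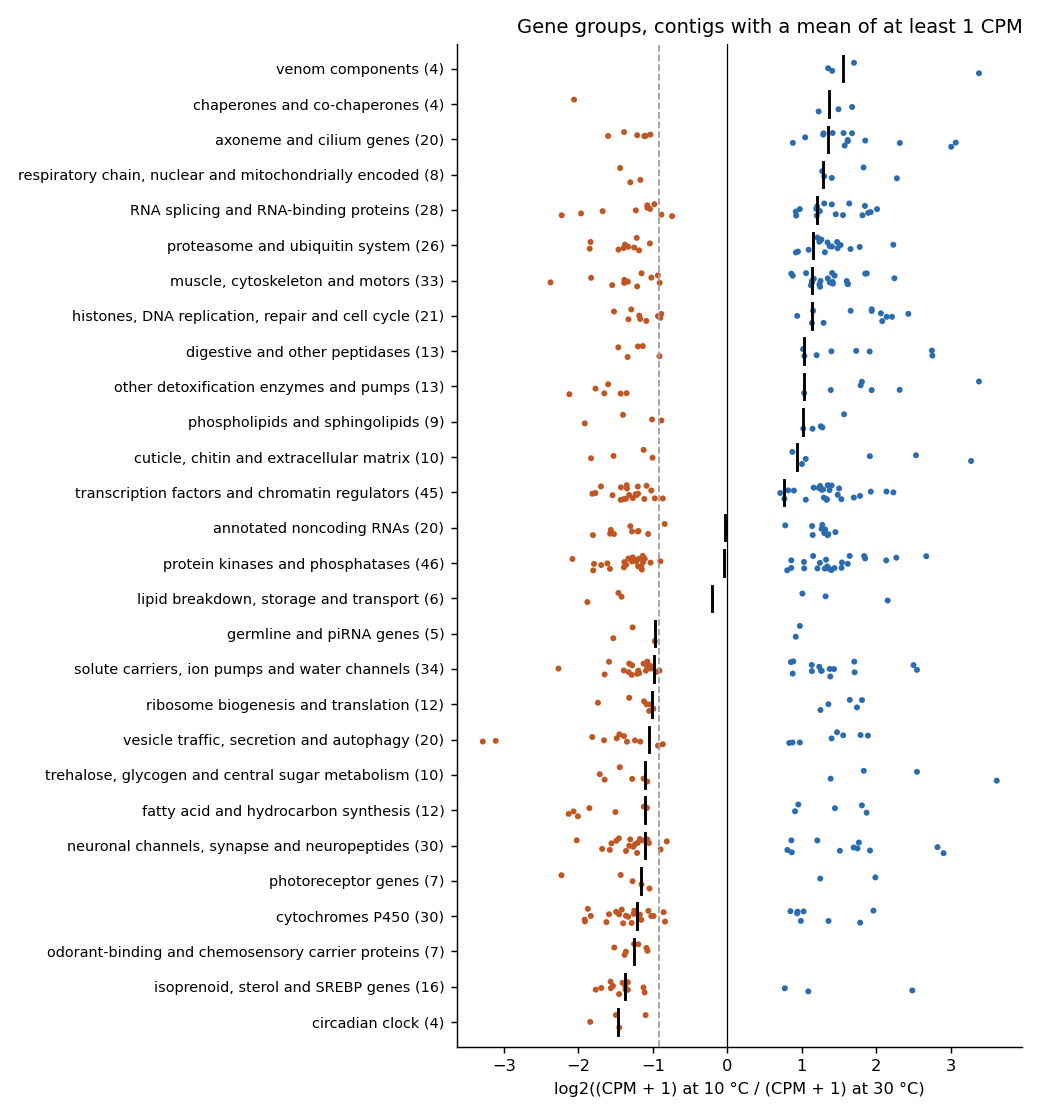
Log2 ratio of (CPM + 1) at 10 °C over 30 °C for counted ant contigs in each gene group with at least 4 of them, 1 point per contig and the number in brackets. Black ticks are medians and the dashed line is the median of all counted ant contigs, -0.91; because nothing near 0 is listed, a median close to 0 marks a group split between both directions.

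Many genes were represented by more than 1 contig, which is closer to an isoform or a fragment than to a gene. Of 235 such genes, 105 had all contigs higher, 59 all lower and 71 contigs in both directions. In 6 of these 71 the entries of a contig name different genes. In 16 genes counted contigs passed 2-fold each way. Adenylate cyclase type 8, which makes cyclic AMP, had a main contig at 339 CPM at 30 °C and 101 CPM at 10 °C, and a minor one with 8 and 120 reads. 3 contigs of longitudinals lacking were lower, the largest at 5.85 and 2.20 CPM, beside the contig that was 17.4-fold higher. Retinal degeneration B, a lipid transfer protein of photoreceptors, had 1 contig at 9.46 and 40.4 CPM and another at 20.7 and 7.99 CPM. Transformer homolog A, a splicing regulator of sex determination, had 40.2 and 16.8 CPM in its largest contig, and the contig of the same locus that was higher, at 0.470 and 2.4 CPM, carries the product name fray2-like kinase instead. For these genes a direction for the gene as a whole is not given.

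**Figure D5:**
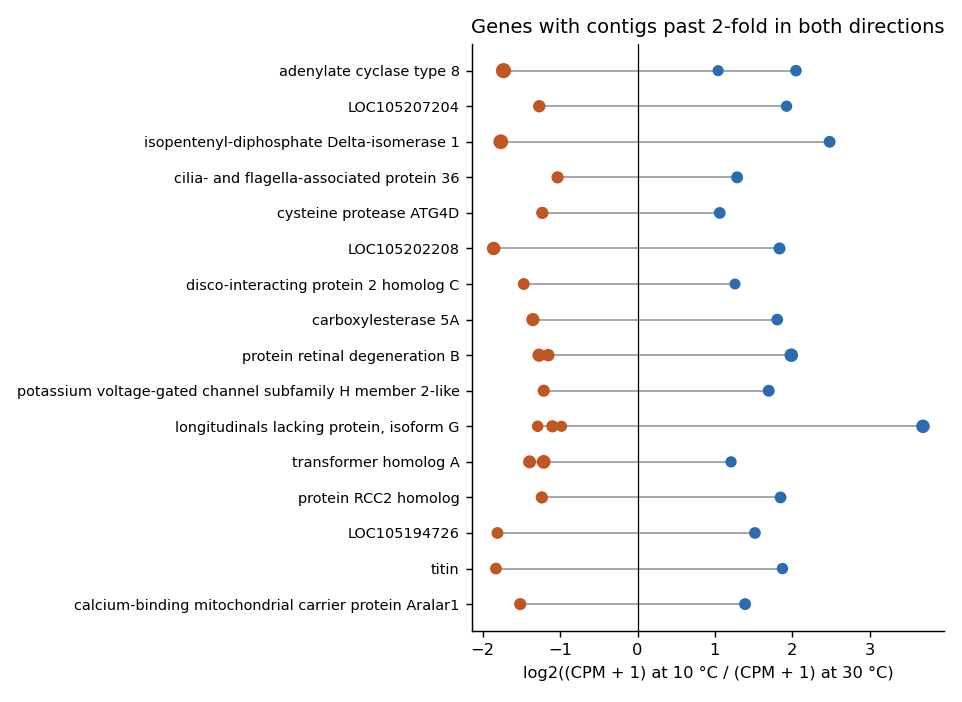
Log2 ratio of (CPM + 1) at 10 °C over 30 °C for each counted contig of the 16 genes with contigs past 2-fold in both directions; larger points have more reads. In isopentenyl-diphosphate isomerase and adenylate cyclase type 8 the contig with most reads is the lower one.

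The contig with most reads in both libraries together belongs to LOC105201354, annotated as a noncoding RNA, with 3003 CPM at 30 °C and 1242 CPM at 10 °C, 2.42-fold lower (2.39 to 2.45), and all 3 of its contigs were lower. Uncharacterized LOC105202242 had 17.6 and 135 CPM, 7.69-fold higher (7.09 to 8.36), with 53.2 CPM at 20 °C and 192 CPM at 40 °C. Uncharacterized LOC105207112 had 19.1 and 1.30 CPM, 14.7-fold lower (10.7 to 20.9). In all, 586 ant contigs had no described product, and 54.4% of them were higher at 10 °C, beside 55.0% of the 1598 with a description.

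Of the ant contigs, 555 are also listed at 20 °C and 485 at 40 °C, each against the same 30 °C library, so those comparisons share their control and are given here only as levels beside each other. Of the 172 named contigs, 80 lie in a gene that overlaps another gene in the reference annotation. Whether the counting used strand is not given in the sources used here, so reads of such partners cannot be told apart.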

How the data were processed

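Whole-body RNA of medium workers was extracted with Trizol and made into cDNA with oligo-dT, per the labels' protocols. The submitters' processing notes list RSEM, Bowtie 1.1.2, Trimmomatic 0.38 and FastQC 0.11.7; the assembler and genome build are not given in the sources used here, so no coordinates are printed. Each listed contig has an estimated count per library, deposited by the authors as a whole number. From the log2 values that the authors deposited, which are log2(CPM + 1), came the scaled library sizes. The FPKM values deposited by the authors were used as an alternative scaling. Fold and p-value columns of the authors' deposited table come from a comparison without replicates and only describe how the list was filtered. That fold is a signed score, written by the authors as negative where the cold library is lower.

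CPM, ratios and exact Clopper-Pearson 95% intervals were computed in Python 3.11.15 with pandas 2.3.3 and SciPy 1.17.1. Reads are not independent molecules, so intervals cover counting error only. The formulas were tested on simulated data. Members, gene lists and the naming rule were chosen with earlier results of these data known; 37 contigs matching a list by a search word alone were removed, and 2 lists were added, after values were seen. Named genes have a described product and 50 or more reads where they are higher: the 12 largest differences each way and up to 5 per list. From the 2 added lists every such counted gene was named, without that limit. The 8 contigs with most reads and 4 uncharacterized ones were named too. The text describes only part of the 172 contigs named in this way, and that choice followed no stated rule. Genes named outside this rule, among them ND4, ND5, unc-79, a titin-like gene, a fatty acid synthase copy, cullin-2, spectrin, phosphoenolpyruvate carboxykinase, synaptotagmin 1, tachykinin, lush and further contigs of split genes, were chosen after their values were seen. Gene names were checked in the annotation of UNIL_Sinv_3.0, which holds 1688 of the 1903 identifiers.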

Additional observations from a re-analysis of the deposited data

Results flagged for a closer look

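Of the 46 named contigs that are also listed at 40 °C, 13 lay on opposite sides of the same 30 °C library at 10 °C and 40 °C, 9 of them higher in the cold. In 6 of the 13 both log2(CPM + 1) differences passed the 2-fold limit. With 1 library per temperature these differences were not tested. General odorant-binding protein 72 (LOC105193332) had a log2 ratio of -1.52 at 10 °C and 2.69 at 40 °C, from 5.77 CPM at 30 °C to 42.7 CPM at 40 °C. The gene LOC105196182, named ejaculatory bulb-specific protein 3, had -1.19 and 3.30, reaching 135 CPM at 40 °C. Nuclear receptor subfamily 4 group A member 2 (LOC105194704), an immediate-early transcription factor, had -1.81 and 2.02. Scavenger receptor class B member 1 (LOC105196585) had -1.24 and 1.63. Cilium genes went the opposite way, 5 of the 13 in all. Every eligible cilium gene was named but only up to 5 from most other lists, so this number cannot be compared between lists. Of these cilium genes, 2 passed the limit both ways. Dynein intermediate chain 3, ciliary (LOC105198690) had 1.61 at 10 °C and -1.22 at 40 °C, and the C6orf165 homolog (LOC105206630) had 1.56 and -1.46.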

How the results depend on the processing

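No paired analysis was possible because each temperature had 1 library, and no library could be left out. Of the counts of 470 higher and 572 lower contigs, a pseudocount of 5 CPM left 131 and 175, a mean of at least 10 CPM left 88 and 155 with 36.2% higher, and a 4-fold limit left 73 and 37 with 66.4% higher, beside 45.1% in the main count; the other alternatives stayed within 1.5 times. Changing the scaling to that of the FPKM values shifted log2 ratios by -0.02. The sign of a named contig could not turn under the alternatives run on it. Of 172 named contigs, the log2 ratio moved by more than its counting interval in 140 with a pseudocount of 5 CPM, in 66 with 0.1 CPM and in 2 with the FPKM scaling. The medians of 25 lists were recomputed 224 times over the alternatives: 185 of these values stayed within the spread of the list, 15 moved further and 24, from 12 lists, changed sign. The cause was not tested. With a mean of at least 10 CPM the medians were -1.60 for detoxification, -0.07 for phospholipids, -1.34 for peptidases, -1.21 for transcription factors, -0.01 for RNA proteins, 1.36 for translation, 0.05 for kinases, 1.44 for vesicle traffic and 1.35 for noncoding RNAs. Without a filter they were 0.68 for lipid breakdown, 0.47 for sugar, 0.49 for solute carriers, 0.61 for translation, 0.63 for kinases and 0.41 for noncoding RNAs. With a pseudocount of 0.1 CPM lipid breakdown gave 0.14 and kinases 0.03. With 1 contig per gene, detoxification gave -0.16 and transcription factors -0.97; KEGG matches alone gave -0.16 for detoxification and 1.01 for lipid breakdown, and nucleotide matches alone -0.16 for detoxification and 0.80 for kinases. Lists as first written, an alternative chosen after seeing the data, gave 1.04 for sugar. The planned search of promoters for motifs was not run, because no sequence was used here. A library of 1 per temperature limits every result, and 1 read stands for 0.0333 CPM in the cold library and 0.0261 CPM in the control, so ratios on few reads are imprecise.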
